A study of Oryza sativa with 58 samples.

Results

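RNA-Seq of young leaves was compared between 7 varieties of Xian rice, the subspecies group also called Indica, and 5 varieties classed as Intermediate. The Xian varieties were Aijiaonante, Xibaizhan, WH139, Nanjing11, 9311, Y134 and IR72 (14 libraries), and the Intermediate varieties were PeiC122, Yong Chal Byo, TAINO 38, Ginga and LABELLE (10 libraries). These 24 libraries are part of a series of 58, of which 34 libraries from 17 varieties list their genes by the MSU identifiers that start with LOC_Os. The labels of the libraries give the variety, and the subpopulation is the one the study assigned to that variety. No treatment or transgene is named for the 12 varieties, and every library was made from total RNA of leaves of 2-week-old seedlings grown hydroponically in a phytotron under 14 h of light and 10 h of dark. Each variety has 2 libraries, which were averaged so that the variety was the unit of the tests. The exceptions are alternative fits on the 24 libraries, given at the end. Nothing in the labels says whether the 2 libraries came from separate plants, so the spread between them may be technical.

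Asian cultivated rice falls into the large groups Xian and Geng (Japonica), with the smaller groups Aus and Aromatic, which were separated by a long history of cultivation in different regions. A variety is commonly classed as Intermediate, or admixed, when its genome cannot be assigned to 1 of these groups because it carries ancestry of several. Among the varieties studied here, 9311 is a Xian line used as a parent of hybrid rice, IR72 is a Xian variety bred at the International Rice Research Institute, and LABELLE is a long-grain variety bred in the United States. Gene expression was measured as FPKM, in which fragments are divided by gene length and by the total of the library, so that levels can be compared between genes of different length. The table of gene names used here does not pair the MSU identifiers with names or functions. Of 55986 identifiers, 0 matched exactly and 1 matched without the prefix. Therefore genes are given by identifier, no role is stated for any of them, and leaf markers could not be checked.

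No difference between the 2 groups in the number of genes detected passed a test. Above 1 FPKM, a Xian library had 19310 to 19781 genes (median 19535) and an Intermediate library 18170 to 20083 (median 19688). The variety means were 19532 ± 148.1 genes in Xian (SD, n = 7) and 19639 ± 430 in Intermediate (SD, n = 5), a difference of -107 genes that did not pass an exact permutation test over varieties (two-sided p = 0.578, adjusted over 3 measures 0.578). The other measures of this family were the summed FPKM (825874 ± 92220 in Xian and 794284 ± 65360 in Intermediate, exact p = 0.538, adjusted 0.578) and the relative depth read from the steps between low values (1.13 ± 0.158 and 1.01 ± 0.195 in the same order, exact p = 0.248, adjusted 0.578). The number of reads behind a value is unknown. PeiC122 replicate 1 stood apart from the other libraries. It had 18170 genes above 1 FPKM, against 19611 to 20083 in the other 9 Intermediate libraries, and it correlated with PeiC122 replicate 2 at a Pearson r of 0.879 across genes, whereas the 2 libraries of each other variety correlated at 0.956 or more. Without this library the difference in detected genes was -260 (exact permutation test, adjusted p = 0.0985).

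Across the young leaf transcriptome, a single gene passed the thresholds for a difference between the groups when the variety was the unit. The test covered 21269 genes whose mean exceeded 1 FPKM in either group. Of these, 1 gene (0.00470%) was called, which required a log2 fold change beyond 1.5 together with an adjusted p below 0.05 (limma on log2(FPKM + 1), Benjamini-Hochberg adjustment). This gene, LOC_Os02g04750, was higher in Xian, and 0 genes were called higher in Intermediate. At an unadjusted p below 0.05 there were 3462 genes (16.3%), of which 1651 were higher in Xian and 1811 in Intermediate. The median log2 difference between the groups was -0.01 and the median standard error was 0.19. A second gene, LOC_Os07g12200, passed the adjusted p at a smaller difference. The 2 genes described below as higher in Intermediate did not pass the adjusted p and were chosen after their values were seen, as those with the smallest p among genes past the fold, with at least 10 FPKM in Intermediate and no overlap between variety means.

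LOC_Os02g04750, on chromosome 2, was detected in every Xian library, at 9.97 to 68.3 FPKM with a median of 14.0 FPKM. In the 10 Intermediate libraries it lay between 0 and 1.66 FPKM (median 0.0614), and both LABELLE libraries listed it at 0. The variety means were 21.2 ± 19.8 FPKM in Xian (SD, n = 7) and 0.516 ± 0.678 FPKM in Intermediate (SD, n = 5), and no Intermediate variety reached the lowest Xian variety, IR72, at 10.0 FPKM. Y134 was the highest at 65.6 FPKM, while the other 6 Xian varieties had between 10.0 and 19.1 FPKM. Within Intermediate, TAINO 38 and Ginga had 1.23 and 1.28 FPKM, and PeiC122 and Yong Chal Byo had 0.0405 and 0.0209 FPKM. The difference on the log2(FPKM + 1) scale was 3.69 ± 0.42 (SE; limma adjusted p = 0.0237), a scale that understates the change of a gene close to 0.

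The same gene was not confined to Xian among the varieties outside the comparison. It had 14.2 FPKM in Garia, an Aus variety, and 20.5 and 3.61 FPKM in Gasym Hany and BASMATI 385, which are Aromatic. In the other Aus variety, HKG 98, it had 0.0402 FPKM, and in Latisai1, which is Geng, 0.141 FPKM. The call of LOC_Os02g04750 depended on which varieties were included. It was lost without LABELLE (limma adjusted p = 0.135), without Nanjing11 (0.0780) and without Aijiaonante (0.0579), although the log2 difference stayed between 3.37 and 3.86 whichever variety was left out.

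LOC_Os07g12200, on chromosome 7, differed by less but at a high level. Its libraries had 50.0 to 89.3 FPKM in Xian (median 66.2) and 25.5 to 69.3 FPKM in Intermediate (median 35.8), so the libraries of the groups overlapped, while the variety means did not. The variety means were 69.8 ± 9.53 FPKM in Xian (SD, n = 7) and 39.1 ± 5.16 FPKM in Intermediate (SD, n = 5), a log2 difference of 0.85 ± 0.11 (SE; limma adjusted p = 0.0407). The overlap came from PeiC122, whose libraries had 25.5 and 69.3 FPKM. Outside the comparison, Garia had 101 FPKM, above every Xian variety, and Gasym Hany had 54.9 FPKM, above the lowest Xian variety, WH139, at 53.8 FPKM. Latisai1, HKG 98 and BASMATI 385 had 34.9, 40.3 and 36.4 FPKM. The gene did not pass the adjusted p without PeiC122 replicate 1 (log2 difference 0.71, limma adjusted p = 0.133), nor without LABELLE (0.153), Nanjing11 (0.116), Aijiaonante (0.115), TAINO 38 (0.0761), IR72 (0.0758) or 9311 (0.0753). In all, it failed in 16 of 35 alternatives.

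LOC_Os02g37150, also on chromosome 2, had 3.65 to 7.91 FPKM in the Xian libraries (median 5.47) and 6.11 to 38.6 FPKM in the Intermediate libraries (median 33.6), which overlapped through PeiC122 replicate 2. The variety means were 5.40 ± 0.663 FPKM in Xian (SD, n = 7) and 29.2 ± 12.1 FPKM in Intermediate (SD, n = 5), and the log2 difference was -2.09 ± 0.31 (SE; limma adjusted p = 0.0711). Within Intermediate, 4 varieties lay between 31.4 and 37.5 FPKM, and PeiC122 had 8.06 FPKM, close to the highest Xian variety, Nanjing11, at 6.37 FPKM. Outside the comparison, Latisai1 and Gasym Hany had 32.2 and 25.7 FPKM, while HKG 98, Garia and BASMATI 385 had 3.62, 4.11 and 3.71 FPKM. This gene therefore had a high and a low level with no variety between 8.06 and 25.7 FPKM. With each variety left out in turn, the limma adjusted p ran from 7.82e-07 without PeiC122 (log2 difference -2.49) to 0.202 without LABELLE, and it was 0.0775 without PeiC122 replicate 1. It passed without PeiC122, Yong Chal Byo (0.0265) or Y134 (0.0354), and in 10 of 35 alternatives in all.

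LOC_Os10g37880, on chromosome 10, had 2.00 to 7.50 FPKM in the Xian libraries (median 4.27) and 6.26 to 24.4 FPKM in the Intermediate libraries (median 20.2), and here too PeiC122 replicate 2 overlapped with Xian. Its variety means were 4.29 ± 1.91 FPKM in Xian (SD, n = 7) and 18.3 ± 6.36 FPKM in Intermediate (SD, n = 5), a log2 difference of -1.86 ± 0.31 (SE; limma adjusted p = 0.0711). PeiC122 was again the lowest Intermediate variety, at 7.47 FPKM, next to 9311 with 7.07 FPKM, and the other 4 varieties had 18.2 to 23.5 FPKM. In Latisai1 this gene had only 2.64 FPKM, and of the 5 outside varieties HKG 98 had the highest level, at 19.2 FPKM. With each variety left out in turn, the limma adjusted p ran from 0.0111 without PeiC122 (log2 difference -2.14) to 0.202 without LABELLE, and it was 0.0775 without PeiC122 replicate 1. It passed without PeiC122, Yong Chal Byo (0.0386) or Y134 (0.0455), and in 9 of 35 alternatives in all.

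**Figure D1:**
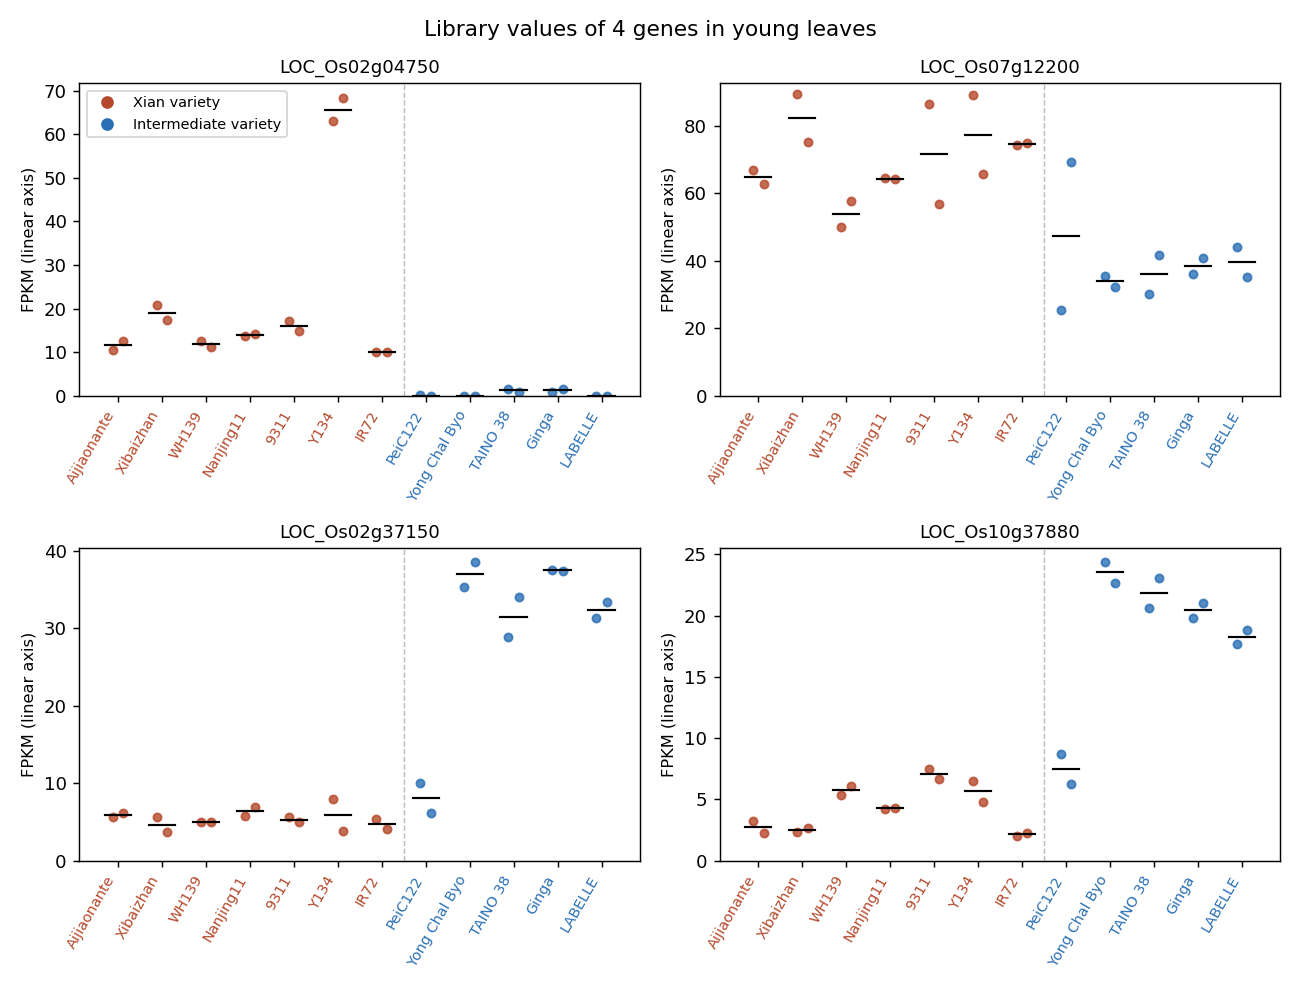
FPKM (linear axis) of 4 genes in each young leaf library, as points, with the mean of the 2 libraries of a variety as a bar; the 7 Xian varieties stand left of the dashed line and the 5 Intermediate varieties right of it. LOC_Os02g04750 was at 0 to 1.66 FPKM in every Intermediate library, and PeiC122 was close to the Xian varieties for LOC_Os02g37150 and LOC_Os10g37880.

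Differences of large size were carried by some varieties of a group more than by others. A log2 difference beyond 1.5 was found for 354 genes (1.66% of those tested), 119 higher in Xian and 235 higher in Intermediate. A single variety weighs more in the mean of 5 than in the mean of 7. For 18 of the 354 genes the variety means of the groups did not overlap, 10 of them higher in Xian and 8 higher in Intermediate. Over all tested genes, the variety means did not overlap for 232 of 21269 (1.09%). Among the 235 genes higher in Intermediate, LABELLE exceeded every Xian variety for 157 genes (66.8%) and TAINO 38 for 59.1%, followed by Ginga for 108 (46.0%). PeiC122 did so for only 75 (31.9%) and Yong Chal Byo for 69 (29.4%). At 34 of the 235 genes, no Intermediate variety exceeded every Xian variety, at 30 and 49 genes 1 and 2 varieties did, at 76 genes 3 did, at 38 genes 4 did, and at 8 genes all 5 did. Among the 119 genes higher in Xian, Yong Chal Byo was below every Xian variety for 29 genes (24.4%), whereas PeiC122, TAINO 38, Ginga and LABELLE were for 56 to 72 genes (47.1% to 60.5%). All 5 Intermediate varieties were below every Xian variety for 10 of the 119 genes, 4 varieties for 29, 3 for 32, 2 for 12, 1 for 6 and 0 for 30. These genes were chosen by the difference of the means, so the shares describe which varieties carried it and are not tested. The shares of PeiC122 rest on a mean that includes replicate 1. Without PeiC122 replicate 1, 99 genes were past the fold in the direction of Xian and 256 in the direction of Intermediate. Without PeiC122 altogether, the counts were 179 and 339 in the same order, and without Yong Chal Byo they were 182 and 313.

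No gene was listed at 0 in every library of 1 group and above 1 FPKM in every library of the other. This held in both directions, without PeiC122 replicate 1, and when the lower group only had to stay below 0.5 FPKM. Weaker patterns were present. A gene was taken as off in a variety below 0.1 FPKM in both libraries, and as on above 1 FPKM in both. Off in all 5 Intermediate varieties, on in at least 1 Xian variety and off in the remaining Xian varieties were 80 genes. Of these, 55 were on in a single Xian variety, 2 were on in 6 of the 7, and 0 were on in all 7; Y134 was the variety in which both genes of the second kind were off. In the other direction, 209 genes were off in all 7 Xian varieties, on in at least 1 Intermediate variety and off in the remaining ones. Of the 209, 117 were on in a single variety, 37 in 3, 6 in 4, and 0 in all 5. LABELLE and Ginga expressed 107 and 101 of the 209 genes, TAINO 38 expressed 65, and PeiC122 and Yong Chal Byo expressed 41 and 36. Latisai1, which had no part in choosing these genes, expressed 90 of the 209 (43.1%), more than the other 4 outside varieties (26 to 65). Of the 80 genes that were off in Intermediate, Latisai1 expressed 3, HKG 98 expressed 5, Garia and BASMATI 385 expressed 9 each, and Gasym Hany expressed 13. A gene listed near 0 may lack transcripts, or its reads may differ from the gene models used by the authors, which follow the Geng variety Nipponbare; the part of the gene models was not tested.

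The spread among varieties was larger in Intermediate. The median standard deviation of a gene among variety means, on the log2(FPKM + 1) scale, was 0.268 in Xian and 0.338 in Intermediate, and 64.2% of the tested genes varied more in Intermediate. Without PeiC122 the Intermediate median was 0.264, and without Yong Chal Byo it was 0.341. The 2 libraries of PeiC122 differed by a median of 0.518 on this scale, against 0.0903 to 0.167 for the other 11 varieties.

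To describe how like the varieties were, Spearman correlations were calculated across the 21269 genes, which are not independent replicates. Pairs of Xian varieties correlated at 0.906 to 0.960 (median 0.927, 21 pairs). Pairs of Intermediate varieties correlated at 0.856 to 0.923 (median 0.892, 10 pairs), and pairs of a Xian and an Intermediate variety at 0.854 to 0.934 (median 0.888, 35 pairs). Without PeiC122 replicate 1, the pairs of Intermediate varieties correlated at 0.883 to 0.923 (median 0.894) and the pairs across the groups at 0.854 to 0.934 (median 0.894). Yong Chal Byo correlated with the 7 Xian varieties at a mean of 0.927, which was within the 0.917 to 0.938 of the Xian varieties among themselves, and with the other Intermediate varieties at 0.895. PeiC122 correlated with Xian at 0.892 and with the other Intermediate varieties at 0.868, both with replicate 1 included. With replicate 2 alone it correlated with Xian at 0.914. Its mean with the other Intermediate varieties was not calculated for replicate 2 alone, but each of those pairs was then at 0.883 or more. The values 0.914 and 0.868 are therefore not like for like. TAINO 38, Ginga and LABELLE correlated with Xian at 0.880, 0.892 and 0.873.

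The correlation with Latisai1, the only Geng variety with MSU identifiers, was 0.885 ± 0.0121 in Xian (SD, n = 7) and 0.911 ± 0.0233 in Intermediate (SD, n = 5). The difference of -0.0258 had an exact permutation p of 0.0328 and an adjusted p of 0.0985 over the 3 subpopulations compared. LABELLE (0.939), Ginga (0.923) and TAINO 38 (0.914) were closer to Latisai1 than any Xian variety was, and PeiC122 (0.876) was within the Xian values of 0.870 to 0.904. Yong Chal Byo (0.904) was level with the highest Xian variety, Xibaizhan. Without PeiC122 replicate 1, PeiC122 correlated with Latisai1 at 0.896, and the difference between the groups was -0.0298 (exact permutation p = 0.00505, adjusted 0.0152). That library therefore decided this call. Similarity to Aus (0.897 ± 0.00998 in Xian and 0.893 ± 0.0176 in Intermediate, exact p = 0.626, adjusted 0.783) and to Aromatic (0.903 ± 0.00996 in Xian and 0.906 ± 0.0225 in Intermediate, exact p = 0.783, adjusted 0.783) did not pass the test. The first principal component of the 12 variety means held 24.3% of the variance. On it the Xian varieties lay between -46.8 and 2.2, PeiC122 and Yong Chal Byo at -21.0 and -8.5, and Ginga, TAINO 38 and LABELLE at 46.5, 72.4 and 82.8. On the second component (12.9%), PeiC122 stood apart at 90.8, and the other 11 varieties lay between -29.5 and 13.5. The mean of PeiC122 used here includes replicate 1, and the components were not computed without that library.

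**Figure D2:**
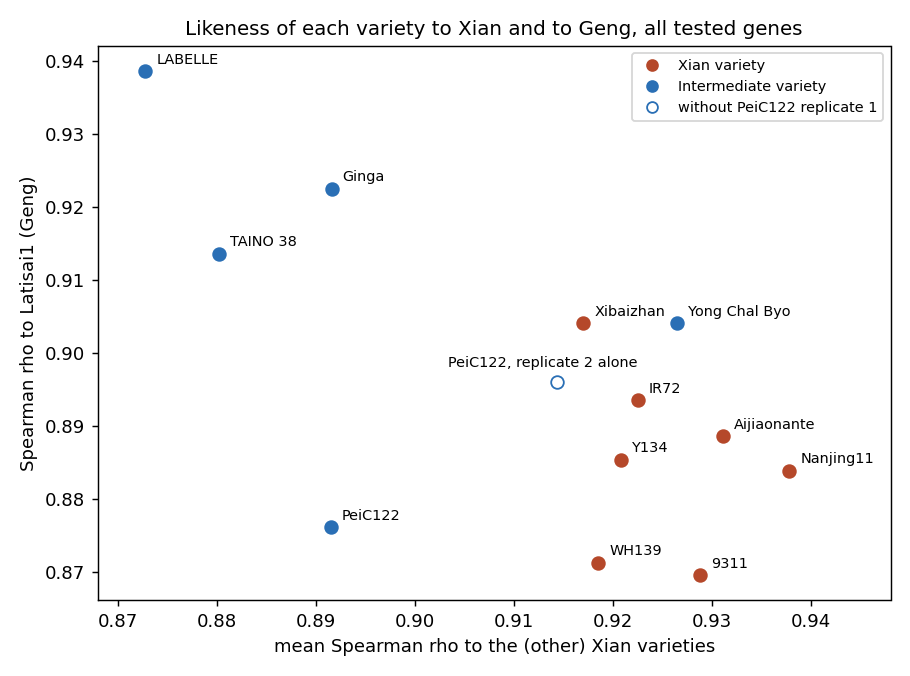
Spearman rho across 21269 genes between each variety and Latisai1, a Geng variety (vertical axis), against its mean rho to the 7 Xian varieties, or to the other 6 for a Xian variety (horizontal axis); each point is a variety and the open circle is PeiC122 with replicate 2 alone. LABELLE, Ginga and TAINO 38 lie at 0.914 or more on the vertical axis. Yong Chal Byo lies among the Xian varieties on the horizontal axis, at 0.927, and level with the highest of them on the vertical axis, at 0.904.

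Without regard to a p or a fold, the variety means of the groups were fully apart at a small share of the tested genes. For 232 genes (1.09%) the 7 Xian and the 5 Intermediate variety means did not overlap; 111 (0.522%) were higher in Xian and 121 (0.569%) were higher in Intermediate. These genes were not low in expression. Those higher in Xian had a median of 16.6 FPKM in Xian and 8.32 FPKM in Intermediate, and those higher in Intermediate had a median of 10.7 FPKM in Xian and 15.1 FPKM in Intermediate, while the tested genes had medians of 9.69 and 9.92 FPKM in Xian and Intermediate. The median size of their log2 difference was 0.57, against 0.20 over all tested genes, and 18 (7.76%) exceeded 1.5. Without PeiC122 replicate 1, 213 genes did not overlap, 97 of them higher in Xian and 116 higher in Intermediate.

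Since the variety means were used to choose these genes, a variety was placed only on genes chosen without it. Latisai1 lay inside the Intermediate range for 163 of the 232 genes (70.3%) and inside the Xian range for 23 (9.91%). The share was alike for genes higher in Xian (77 of 111 inside the Intermediate range) and higher in Intermediate (86 of 121). The Aus varieties HKG 98 and Garia lay inside the Intermediate range for 114 and 99 genes and inside the Xian range for 69 and 72. The Aromatic varieties Gasym Hany and BASMATI 385 did so for 111 and 108 genes and for 79 and 68 genes. The Intermediate range was the wider of the 2 ranges for 53.9% of the 232 genes.

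Each of the 12 varieties was then left out in turn, and placed on the genes for which the other 11 did not overlap. Of the Xian varieties, Nanjing11 fell on the Xian side of the midpoint between the group means for 231 of 270 genes (85.6%) and 9311 for 229 of 274 (83.6%). WH139 (75.4%), Aijiaonante (71.1%) and Y134 (59.9%) followed, while Xibaizhan and IR72 were on the Xian side for only 51.4% and 50.1% of 434 and 447 genes. Of the Intermediate varieties, LABELLE was on the Xian side for only 47 of 275 genes (17.1%), TAINO 38 for 133 of 358 (37.2%) and Ginga for 187 of 400 (46.8%). PeiC122 was on the Xian side for 386 of 602 genes (64.1%), or for 404 (67.1%) with replicate 2 alone. Yong Chal Byo was on the Xian side for 663 of 851 genes (77.9%). It lay inside the Xian range for 577 of the 851 genes (67.8%), against 33.1% to 66.1% for the Xian varieties, whose range was formed by 6 varieties in place of 7. The lists differ between varieties, and a variety close to the other group lengthens its own list, so that these shares are descriptions.

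**Figure D3:**
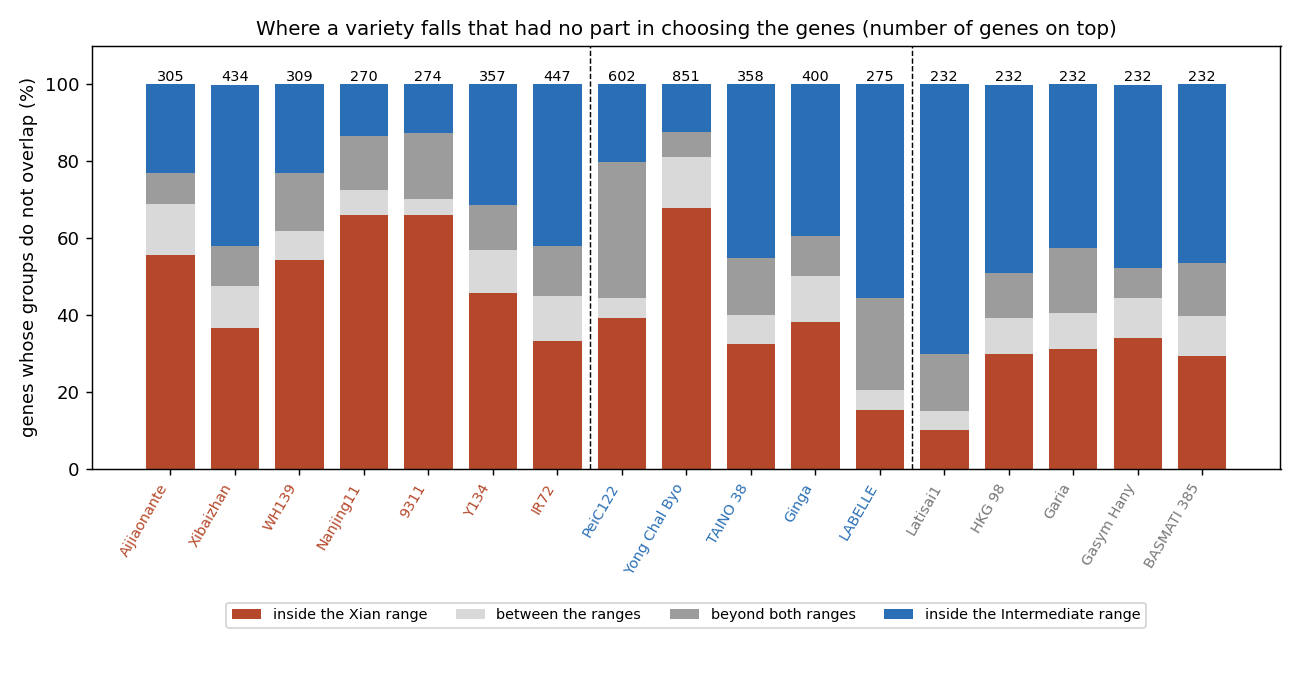
Share of genes (vertical axis, percent) for which a variety lies inside the Xian range, between the ranges, beyond both or inside the Intermediate range, with the number of genes on top; Xian and Intermediate varieties are placed on genes chosen from the other 11, and the 5 outside varieties on the 232 genes of all 12. Yong Chal Byo lies inside the Xian range for 67.8% of 851 genes, LABELLE for 15.3% of 275 and Latisai1 for 9.91% of 232.

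Among the settings that left out a single variety, most genes were called without Yong Chal Byo. Without Yong Chal Byo, limma called 65 genes, 36 higher in Xian and 29 higher in Intermediate, and without PeiC122 it called 21, 10 higher in Xian and 11 higher in Intermediate. Leaving out Y134 gave 23 calls, 10 higher in Xian and 13 higher in Intermediate, while leaving out any of the other 9 varieties gave 0 to 5. Every pair of Intermediate varieties was also left out, a comparison added after the data were seen. Without PeiC122 and Yong Chal Byo, 273 genes were called, 102 higher in Xian and 171 higher in Intermediate, against 0 to 79 without any of the other 9 pairs. In the settings with 0 calls, 1864 to 3234 genes had an unadjusted limma p below 0.05. For 2369 of 21492 genes (11%) the 7 Xian variety means and the means of TAINO 38, Ginga and LABELLE did not overlap, against 521 to 1776 genes (2.48% to 8.3%) without the other 9 pairs. A group of 3 varieties is separated from a group of 7 more easily than a group of 5 is. The cause of the differences between the 10 pairs was not tested.

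**Figure D4:**
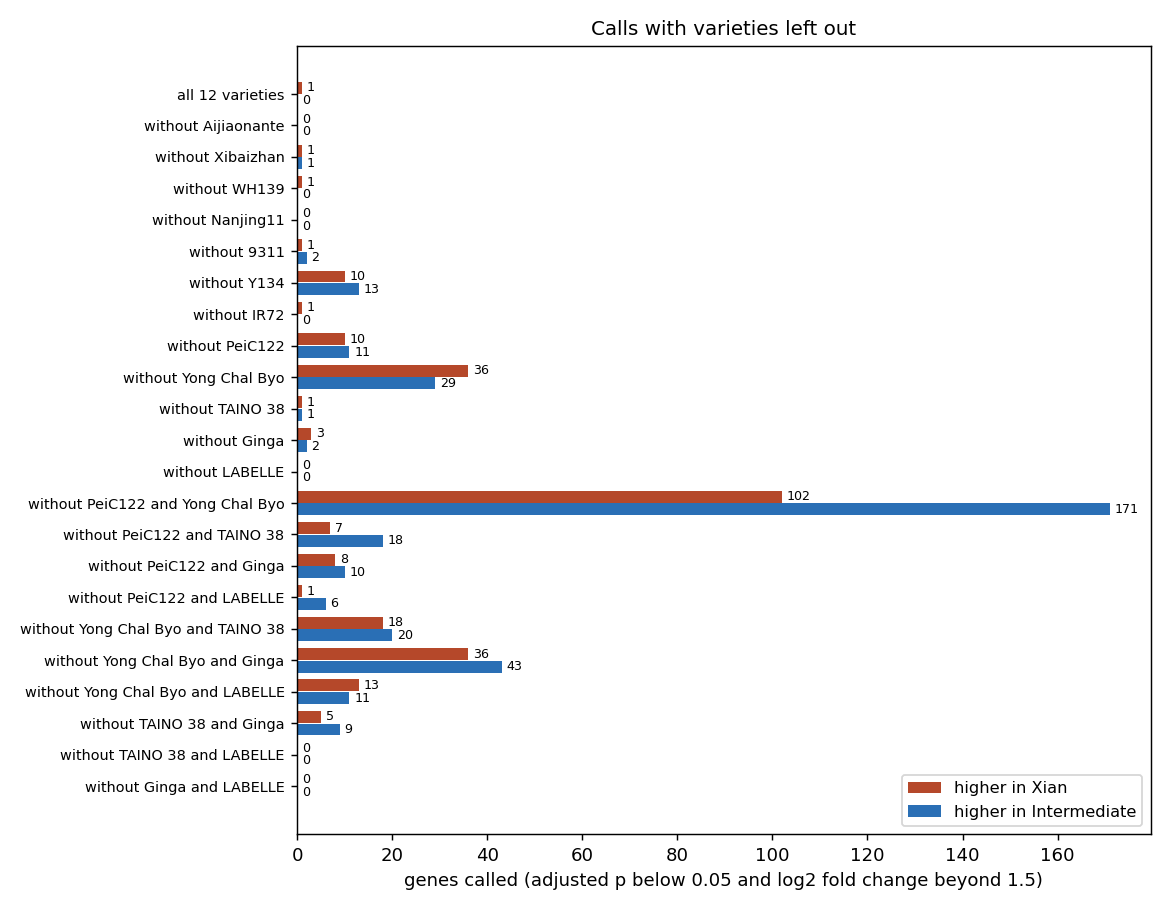
Genes called (horizontal axis; limma adjusted p below 0.05 and a log2 difference beyond 1.5) as higher in Xian (upper bar of each pair) and higher in Intermediate (lower bar), with all 12 varieties, without each variety and without each pair of Intermediate varieties. The bars reach 102 and 171 genes without PeiC122 and Yong Chal Byo and 36 and 43 genes at most in the other settings.

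The longest list, of 2369 genes, was used to describe PeiC122 and Yong Chal Byo along the chromosomes. Their values did not enter the choice of a gene, but this pair was taken because it gave the longest list, so the shares are descriptions. Yong Chal Byo was on the Xian side for 1825 of the genes (77.0%) and PeiC122 for 1550 (65.4%), or for 1672 (70.6%) with replicate 2 alone. Left out with any of the other Intermediate varieties, Yong Chal Byo was on the Xian side for 75.6% to 80.0% of the genes and PeiC122 for 62.4% to 65.6%. Over all pairs, the shares were 43.1% to 53.7% for Ginga, 34.7% to 47.8% for TAINO 38 and 15.1% to 31.3% for LABELLE. On the 2369 genes, Yong Chal Byo was mostly on the Xian side on all 12 chromosomes, from 60.3% of 131 genes on chromosome 10 and 63.9% of 108 genes on chromosome 11 to 87.0% of 123 genes on chromosome 12. PeiC122 had 57.1% (chromosome 5) to 74.1% (chromosome 11) of the genes on the Xian side. In windows of 4000 in the number of the identifier, 49 windows held at least 20 of the genes. Yong Chal Byo was mostly on the Xian side in 48 of the 49 windows (median 81%). The exception was the tenth window of chromosome 10, where it was on the Xian side for only 7 of 29 genes (24.1%). LOC_Os10g37880, which was high in Yong Chal Byo, lies in this window. PeiC122 was mostly on the Xian side in 42 windows and mostly on the Intermediate side in 7, with 7 of 21 genes (33.3%) as the lowest share, in the tenth window of chromosome 8. With replicate 2 alone, it was mostly on the Xian side in 42 windows and mostly on the Intermediate side in 6, with 12 of 27 genes (44.4%) as the lowest share, in the eighth window of chromosome 9.

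Chromosome 10 had the largest share of genes whose variety means did not overlap. There 27 of 1081 tested genes (2.50%) did not overlap between the groups, 13 higher in Xian and 14 higher in Intermediate, against 1.09% over all chromosomes. Chromosome 5 followed with 26 of 1758 (1.48%), and chromosome 12 had the lowest share, 6 of 1210 (0.496%). A gene without overlap requires Yong Chal Byo to lie outside the Xian range. The share on chromosome 10 and the position of Yong Chal Byo there are therefore not separate observations. Differences beyond 1.5 were found for 2.68% of the tested genes on chromosome 10 and for 1.10% to 2.50% on the other chromosomes. Of 21257 neighbouring pairs of tested genes, 9 pairs had both genes among the 232, and in 6 of these the genes differed in the same direction.

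**Figure D5:**
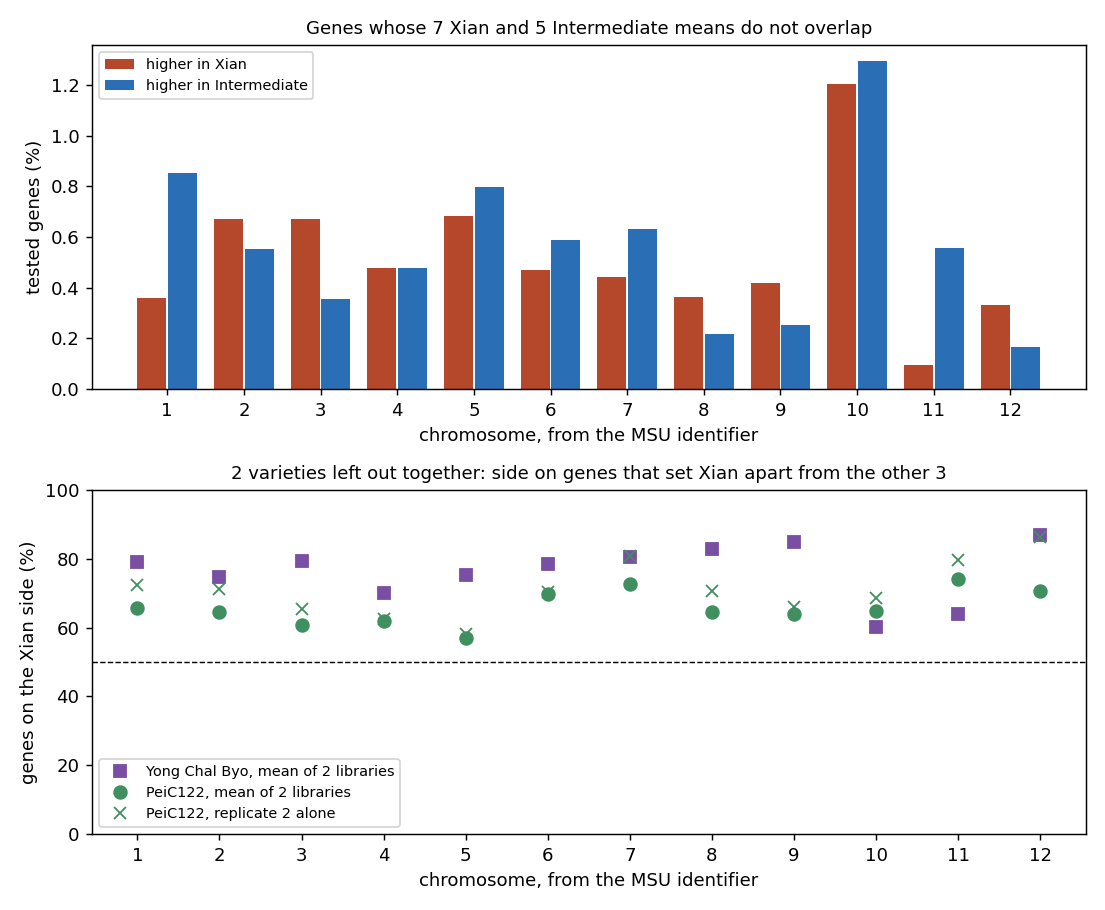
Upper panel, share of tested genes (percent) on each chromosome for which the 7 Xian and the 5 Intermediate variety means do not overlap, by direction; lower panel, share of 2369 genes (percent) for which Yong Chal Byo and PeiC122 fall on the Xian side when both are left out of the choice, with a dashed line at 50%. Chromosome 10 has the highest bars in both directions, and Yong Chal Byo its lowest share, 60.3%. The panels are not independent, since a gene of the upper panel requires Yong Chal Byo to lie outside the Xian range.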

How the data were processed

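The authors trimmed the reads with Trimmomatic, mapped them with TopHat and computed FPKM with Cufflinks (version 2.2.5 in the submitters' processing notes). The deposited FPKM values are normalized to gene length and library size, and no reads per gene are given. The methods name the MH63 and ZS97 genomes for RNA-Seq, while the identifiers are those of the MSU annotation of Nipponbare. The 24 libraries on MH63 identifiers were not used.

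Values were tested as log2(FPKM + 1), averaged over the 2 libraries of a variety, for genes with a mean above 1 FPKM in a group. The test was limma (3.58.1, R 4.3.3; lmFit and eBayes with a trend) with 10 residual degrees of freedom. A gene was called at a log2 difference beyond 1.5 and a p below 0.05 after Benjamini-Hochberg adjustment. Single values were compared by two-sided exact permutation tests over the 7 and 5 varieties (792 arrangements, smallest p 0.00253; scipy 1.17.1). Relative depth came from the steps between values of 0.001 to 0.3 FPKM. The limma step was tested on simulated data.

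Replicate numbers were not used as pairs, since the methods of the study name no block. The deviations of same-numbered libraries correlated at -0.218 to 0.16 (median 0.006), with 5 of 66 pairs of varieties over 0.1. The genes named are the called gene, the other gene past the adjusted p, and 2 genes higher in Intermediate. The groups, lists and tests were chosen with earlier results of these data known. Alternatives changed the pseudocount, filter, scaling, weights and the libraries or varieties included.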

Additional observations from a re-analysis of the deposited data

Results flagged for a closer look

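Values far from the rest of their group, by Dixon's test at the 95% level, were as follows, and chance alone flags about 1 in 20 groups tested in this way. Among the 7 Xian varieties, Y134 was the highest for LOC_Os02g04750, at 6.06 on the log2(FPKM + 1) scale. Among the 5 Intermediate varieties, PeiC122 was the lowest for LOC_Os02g37150, at 3.14, and for LOC_Os10g37880, at 3.07 on the same scale. The correlation between the 2 libraries of a variety was the lowest for PeiC122 among the Intermediate varieties, at 0.879. Among the 10 Intermediate libraries, PeiC122 replicate 1 had the fewest genes above 1 FPKM, 18170. The relative depth of Yong Chal Byo, at 1.34, was the highest among the Intermediate varieties. Several of these flags come from PeiC122, and LOC_Os02g37150 and LOC_Os10g37880 were chosen after their values were seen. The flags are therefore not independent.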

How the results depend on the processing

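The single call was unchanged with a pseudocount of 0.1, no filter, a limit of 5 FPKM, upper quartile scaling, a log2 difference above 1, without PeiC122 replicate 1, and with either replicate number alone. Quantile normalization and eBayes without a trend each called 2 genes, both higher in Xian. With all 17 varieties in 1 fit, 12 genes were called (7 higher in Xian, 5 higher in Intermediate), and with weights by subpopulation 0, with 3058 genes at an unadjusted p below 0.05. Leaving out varieties, singly or as pairs of Intermediate varieties, gave 0 to 273 calls, 0 to 102 higher in Xian and 0 to 171 higher in Intermediate. The 24 libraries with variety as a random effect (22 residual degrees of freedom, correlation within a variety 0.678) gave 154 calls, 44 higher in Xian and 110 higher in Intermediate. With the replicate block added there were 144, 41 higher in Xian and 103 higher in Intermediate. In both of these fits the libraries were not averaged and served as replicates, with a single correlation within a variety used for all genes. The fit of variety means had 10 residual degrees of freedom. The cause of the differences in calls was not tested.

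Genes without overlap numbered 213 to 2369 under these left-out libraries and varieties, and those past the fold 99 to 278 in the direction of Xian and 163 to 490 in that of Intermediate. Without PeiC122 replicate 1, the difference in similarity between Xian and Intermediate was -0.0298 for Geng (exact permutation test, adjusted p = 0.0152, against 0.0985 with it) and -0.00101 for Aus (against 0.00416 with it). The number of reads is unknown, so the counting error of low values cannot be given.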
